A study of Mus musculus with 4 samples.

Results

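The interferon regulatory factor genes described here are *Irf1*, *Irf2*, *Irf3*, *Irf4*, *Irf5*, *Irf7*, *Irf8* and *Irf9*, taken from the deposited table by gene symbol, with the values of their 17 transcript rows summed per gene ID. They are 8 of the 23920 genes in the table, and all 8 were among the 10762 genes that reached 1 FPKM (fragments scaled to transcript length and library size) in at least 1 library. Interferon regulatory factors (IRFs) are transcription factors that bind DNA elements built around GAAA. IRF3 and IRF7 switch on type I interferon genes once kinases below nucleic acid sensors phosphorylate them, and IRF9 joins STAT2 in the complex that answers those interferons. IRF4, IRF5 and IRF8 act mostly in immune cells, and IRF8, a factor of the macrophage and dendritic cell lineages, is known to restrain osteoclast formation in mice.

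Bulk RNA of BMMs, macrophage-like cells grown from bone marrow, was sequenced in 4 libraries, 1 per condition, all labelled C57BL/6, male, 8 weeks of age and 24 h of culture, although the methods give a younger age for osteoclast cultures. The cKO library came from *Stat5* cKO cells (*Stat5* fl/fl with Mx1-Cre) in M-CSF, RANKL and IL-3, and the IL-3 library from *Stat5* fl/fl cells in the same 3 cytokines. The RANKL library came from *Stat5* fl/fl cells in M-CSF and RANKL, and the M-CSF library from *Stat5* fl/fl cells in M-CSF alone. The sample titles name the *Stat5* fl/fl libraries wild-type and the cKO library ko, and the genotypes given here are those of the methods. Mx1-Cre is driven by a promoter that type I interferon switches on, and mice of both genotypes had received poly I:C, a double-stranded RNA analogue that induces interferon. RANKL is the cytokine that turns these precursors into osteoclasts, IL-3 is a myeloid growth factor that signals through STAT5, and no library of cKO cells without IL-3 was analysed here. With 1 library per condition every ratio compares 2 libraries, no test or standard error between cultures or mice could be computed, and the intervals given are 95% counting intervals from the estimated depth alone.

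The libraries held an estimated 37.0, 36.9, 35.1 and 33.3 M fragments for cKO, IL-3, RANKL and M-CSF. The targeted genes followed the labels, as *Stat5a* stood at 0.17 FPKM and *Stat5b* at 0.19 FPKM in the cKO library, whereas no *Stat5* fl/fl library was under 9.89 FPKM for *Stat5a* or under 7.80 FPKM for *Stat5b*. The cell type label of all 4 samples is osteoclast, although the title of the M-CSF sample names a precursor. The summed level of 8 osteoclast markers was 433 FPKM in the cKO library, 122 FPKM in the IL-3 library, 1119 FPKM in the RANKL library and 30.9 FPKM in the M-CSF library. Among them the calcitonin receptor gene *Calcr* was listed at 0 in all 4. The 5 of 6 macrophage markers matched by symbol summed to 1080, 1509, 1025 and 2259 FPKM in the cKO, IL-3, RANKL and M-CSF libraries. Of these, *Cd68* alone stood at 726, 810, 757 and 972 FPKM in that order. In the RANKL library *Csf1r* stood at 227 FPKM, *C1qa* at 35.0 FPKM, *Fcgr1* at 3.32 FPKM and *Mertk* at 1.42 FPKM. The sums therefore do not stand for each marker.

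Promoters of 4 genes are printed because 3 of them hold the palindrome TTCNNNGAA, the sequence that STAT5 dimers are known to bind, and *Irf4*, which moved with *Irf8* and *Irf2*, does not hold it. *Irf5* also moved with them, does not hold it and is not printed, whereas *Irf1* holds it and did not move with them. The sequences are the 250 bases before the gene start from RefSeq on GRCm38.p6, on the plus strand, and capitals mark matches to TTCNNNGAA. They lie at chr8:120736108-120736357 for *Irf8*, chr8:46739495-46739744 for *Irf2*, chr11:53769764-53770013 for *Irf1* and chr13:30748983-30749232 for *Irf4*.
Irf8: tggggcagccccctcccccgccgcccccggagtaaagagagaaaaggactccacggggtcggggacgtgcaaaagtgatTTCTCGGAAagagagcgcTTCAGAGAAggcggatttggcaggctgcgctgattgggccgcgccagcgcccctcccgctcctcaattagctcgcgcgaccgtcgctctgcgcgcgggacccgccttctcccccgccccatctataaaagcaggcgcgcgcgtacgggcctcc
Irf2: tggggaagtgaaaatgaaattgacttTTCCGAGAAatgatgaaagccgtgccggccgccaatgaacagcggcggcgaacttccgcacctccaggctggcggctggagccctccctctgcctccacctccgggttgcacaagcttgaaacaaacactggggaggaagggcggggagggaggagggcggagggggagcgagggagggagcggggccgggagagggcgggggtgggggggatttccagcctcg
Irf1: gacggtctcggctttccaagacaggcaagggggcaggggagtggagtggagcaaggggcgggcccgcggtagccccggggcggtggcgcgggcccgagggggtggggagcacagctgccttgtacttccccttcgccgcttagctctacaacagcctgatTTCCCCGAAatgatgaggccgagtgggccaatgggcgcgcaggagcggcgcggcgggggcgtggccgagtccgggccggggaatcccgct
Irf4: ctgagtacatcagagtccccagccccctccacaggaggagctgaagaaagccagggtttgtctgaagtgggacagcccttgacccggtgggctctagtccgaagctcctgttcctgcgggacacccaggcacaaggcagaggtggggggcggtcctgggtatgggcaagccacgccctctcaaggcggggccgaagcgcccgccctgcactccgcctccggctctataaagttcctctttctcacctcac

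All 8 genes were matched to RefSeq promoter windows of 300 bases, 250 before and 50 after the start, with 11 windows between them, and both strands were searched. *Irf8* had TTCNNNGAA at 2 places, TTCTCGGAA from -171 to -163 and TTCAGAGAA from -153 to -145 relative to the start. *Irf2* had TTCCGAGAA from -224 to -216 and *Irf1* had TTCCCCGAA from -90 to -82. Of 32851 mouse promoter windows, 8.30% held this motif, beside 3 of the 11 windows of the 8 genes. The same ends with 4 free bases between them were present in 6.95% of windows and in *Irf9* alone of the 8, within the first 10 bases after the start. *Irf2* alone held the interferon response core, GAAA and GAAA with 2 free bases between them (3.44% of windows), and the same with GGAA in the first place (2.72% of windows), a form at which PU.1 and an IRF can bind side by side. These matches, GAAAATGAAA and GGAAGTGAAA, lie from -241 to -232 and from -247 to -238, so they share the bases from -241 to -238. A match describes these letters only, as binding was not measured.

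*Irf5* was the most abundant of the 8 genes and *Irf4* the least abundant in each of the 4 libraries, on the FPKM scale, which is per transcript length. Together the 8 genes summed to 241 FPKM in the cKO library, 284 FPKM in the IL-3 library, 178 FPKM in the RANKL library and 327 FPKM in the M-CSF library. *Irf5* made up 36.6% to 43.3% of these sums. *Irf8* held 4.22% of the sum in the cKO library, 13.5% in the IL-3 library, 2.98% in the RANKL library and 16.6% in the M-CSF library. It was thus second in level with IL-3 and with M-CSF, and seventh in the cKO and RANKL libraries. Most neighbours in the order were separated beyond their counting intervals. The exceptions were *Irf2* and *Irf3* in the cKO library, *Irf8* with *Irf7* and *Irf7* with *Irf2* in the IL-3 library, *Irf3* and *Irf9* in the RANKL library, and *Irf7* and *Irf2* in the M-CSF library.

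**Figure D1:**
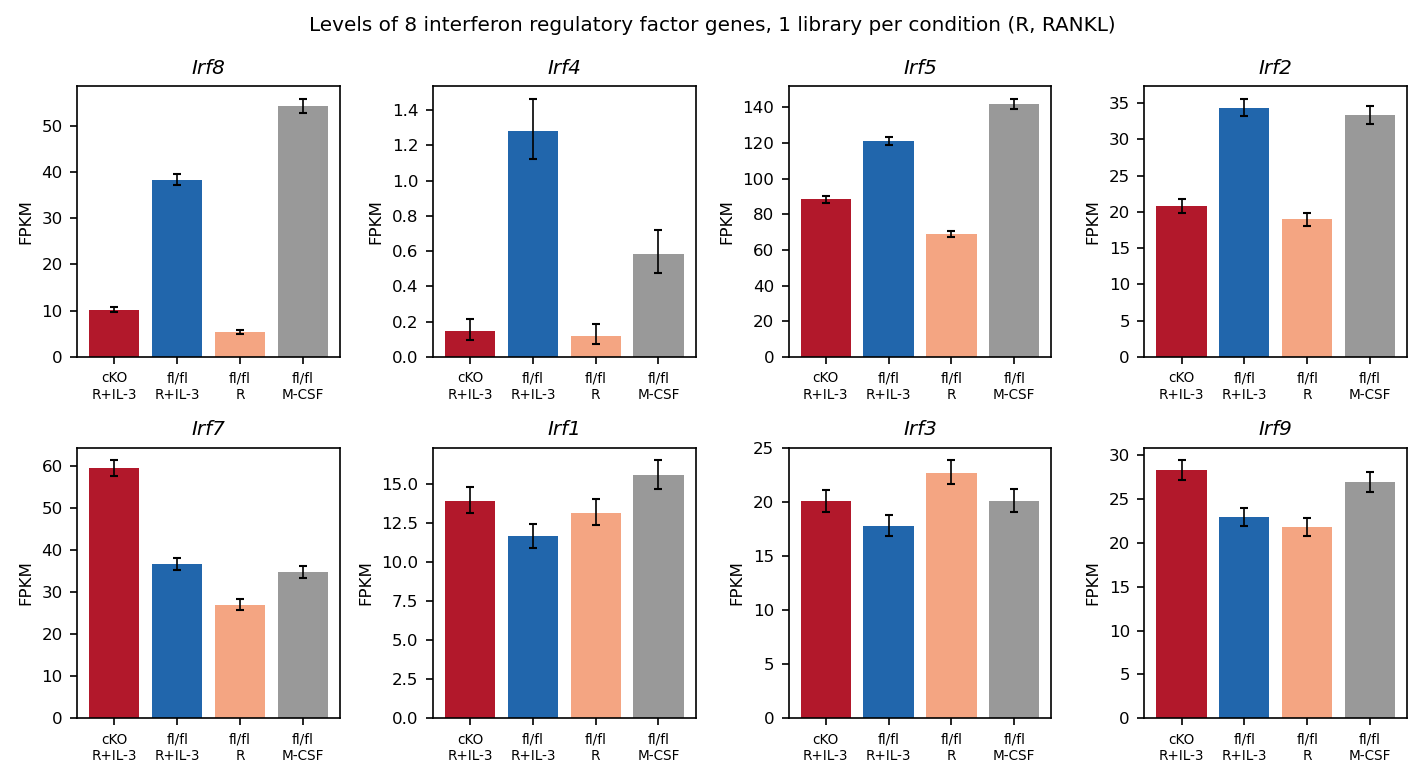
Level in FPKM (vertical axis, from 0, with its own scale in each panel) of the 8 genes in the cKO, IL-3, RANKL and M-CSF libraries, 1 bar per library, with 95% counting intervals as error bars that leave out variation between cultures. *Irf8*, *Irf4*, *Irf5* and *Irf2* have low bars in the cKO and RANKL libraries and high bars in the IL-3 and M-CSF libraries, whereas *Irf7* is highest in cKO at 59.6 FPKM.

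The design gives 3 contrasts, named here the RANKL contrast (RANKL library over M-CSF library), the IL-3 contrast (IL-3 library over RANKL library) and the genotype contrast (cKO library over IL-3 library). They ask what RANKL changes, what IL-3 changes in its presence, and what changes when STAT5 is absent. Ratios were taken on the log2(FPKM + 1) scale, which understates differences of low genes, and a gene was counted from 2-fold on this scale. In the RANKL contrast 2 of the 8 genes were lower, *Irf5* and *Irf8*, where 6.88% of all genes were, and 0 were higher, where 5.44% of all genes were. In the IL-3 contrast 2 were higher, *Irf4* and *Irf8*, where 6.11% of all genes were, and 0 were lower, where 3.47% of all genes were. *Irf4* reached the 1 FPKM minimum in the IL-3 library alone, so it could be counted only through the library in which it was higher, and with a minimum of 5 FPKM 1 gene, *Irf8*, was counted. In the genotype contrast 1 gene was lower, *Irf8*, where 4.28% of all genes were, and 0 were higher, where 2.11% of all genes were. The median log2 ratio of the 8 genes was -0.43 in the RANKL contrast (0.14 over all genes), 0.62 in the IL-3 contrast (-0.15 over all genes) and -0.14 in the genotype contrast (0.13 over all genes). These shifts of all genes are included in every ratio. With libraries scaled to a common median, the RANKL contrast held 435 higher and 937 lower genes (585 and 740 without this scaling), and the IL-3 contrast 818 and 270 (658 and 373 without it).

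*Irf2*, *Irf4*, *Irf5* and *Irf8* shared 1 course, down in the RANKL contrast, up in the IL-3 contrast and down in the genotype contrast, which 25.7% of all genes had at any size. *Irf4* reached the 1 FPKM minimum in the IL-3 library alone, so for *Irf4* the minimum itself favoured this course. At 2-fold in all 3 contrasts *Irf8* alone of the 8 had the course on the log2(FPKM + 1) scale, beside 2.14% of all genes. With a pseudocount of 0.1 FPKM *Irf4* had the course too, at -1.64, 2.65 and -2.47. At that pseudocount 989 of all genes were lower in the RANKL contrast (740 as reported). Another 866 were higher in the IL-3 contrast (658 as reported) and 636 lower in the genotype contrast (461 as reported). The share of all genes past 2-fold in all 3 was not computed at that pseudocount. Successive contrasts have a library in common, so the 3 signs are not independent of each other. *Irf7* went down, up and up in the 3 contrasts. *Irf9* had the signs of *Irf7*, but its counting interval for the IL-3 contrast spanned no difference. *Irf1* and *Irf3* stayed within 1.5-fold in each contrast.

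**Figure D2:**
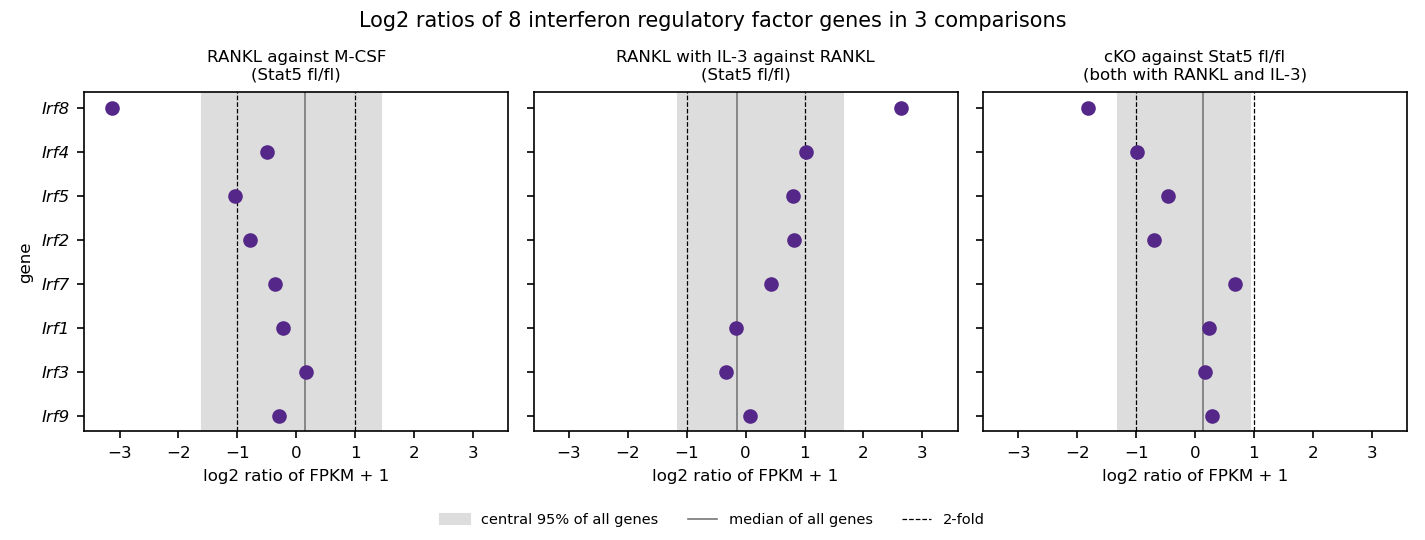
Log2 ratio of FPKM + 1 (horizontal axis) of each of the 8 genes (vertical axis) in the RANKL, IL-3 and genotype contrasts, 1 point per gene. The grey band holds the central 95% of all 10762 genes, the grey line is their median and dashed lines mark 2-fold. *Irf8* lies outside the band in all 3 panels, at -3.13, 2.64 and -1.81, and the other 7 genes lie inside it.

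*Irf8* encodes a factor that partners with PU.1 in macrophages and restrains NFATc1 in osteoclast precursors of mice. It stood at 10.2 FPKM in the cKO library, 38.2 FPKM in the IL-3 library, 5.30 FPKM in the RANKL library and 54.3 FPKM in the M-CSF library, so the cKO and RANKL libraries were low and the others high. Its level was 10.2-fold lower with RANKL than with M-CSF (interval 9.36 to 11.2). It was 7.21-fold higher after IL-3 was added to RANKL (6.59 to 7.91), and 3.75-fold lower in the cKO than in the IL-3 library (3.50 to 4.01). Among 10762 log2 ratios *Irf8* ranked 30 from the bottom in the RANKL contrast, 82 from the top in the IL-3 contrast and 144 from the bottom in the genotype contrast. In bulk samples fewer cells of a type and less RNA per cell cannot be told apart, and this holds for every difference given here.

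The IL-3 library did not reach the *Irf8* level of the M-CSF library and stood 67.2% of the way from RANKL to M-CSF in FPKM. The cKO library stood 14.9% of the way from the RANKL to the IL-3 library, which differ from it by genotype and IL-3 together or by genotype alone. Nearly all *Irf8* signal came from NM_008320, with 99.2% of the gene or more in each library. The gene (ID 15900) lies on GRCm38 chromosome 8 from 120736358 to 120756694 on the plus strand, and shares no exon bases with a neighbour in GENCODE M21.

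Of 8137 genes compared over the 4 libraries, the one nearest to *Irf8* in pattern was *Rab3il1*, which encodes an exchange factor for Rab GTPases, at a root mean square difference of 0.11 log2 units after each gene was centred on its mean. *Rab3il1* stood at 11.8 FPKM in the cKO library, 44.4 FPKM in the IL-3 library, 5.56 FPKM in the RANKL library and 70.4 FPKM in the M-CSF library. The next were *Hmox1*, for the heme-degrading enzyme heme oxygenase, at 0.16, *Tlr8*, for an endosomal RNA sensor, at 0.17, *Hal*, for histidine ammonia lyase, at 0.19 and *Dab2*, for an endocytic adaptor, at 0.20. Likeness over 4 points describes these libraries only.

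Among 9 transcription factor genes known in the control of osteoclast formation, the RANKL contrast had 4 higher and 3 lower (5.44% and 6.88% of all genes). The IL-3 contrast had 4 and 5 (6.11% and 3.47% of all genes), and the genotype contrast 4 and 3 (2.11% and 4.28%). Their medians were -0.95, -1.13 and 0.54 (0.14, -0.15 and 0.13 over all genes). The genes lay on both sides of 0, so these medians shift with the choice of genes. Among those on the side of *Irf8*, *Id1*, for an inhibitor of helix-loop-helix factors, had log2 ratios of -3.82 in the RANKL contrast, 3.79 in the IL-3 contrast and -2.34 in the genotype contrast. *Notch1*, for a receptor, also took this side, with log2 ratios of -1.20, 1.30 and -1.41 in these contrasts.

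On the opposite side *Nfatc1*, the central osteoclast factor gene, stood at 84.8 FPKM in the cKO library, 17.7 FPKM in the IL-3 library, 157 FPKM in the RANKL library and 13.6 FPKM in the M-CSF library. It was thus high where *Irf8* was low. *Prdm1*, which encodes Blimp1, a repressor known to lower *Irf8* in osteoclast precursors of mice, stood at 10.2 FPKM in the cKO library, 1.58 FPKM in the IL-3 library, 23.5 FPKM in the RANKL library and 0.84 FPKM in the M-CSF library. *Bcl6*, for a repressor that Blimp1 is known to restrain, had an order of its own, with 12.96 FPKM in the cKO library, 3.76 FPKM in the IL-3 library, 9.41 FPKM in the RANKL library and 19.4 FPKM in the M-CSF library. Whether any of these genes acted on *Irf8* was not tested.

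**Figure D3:**
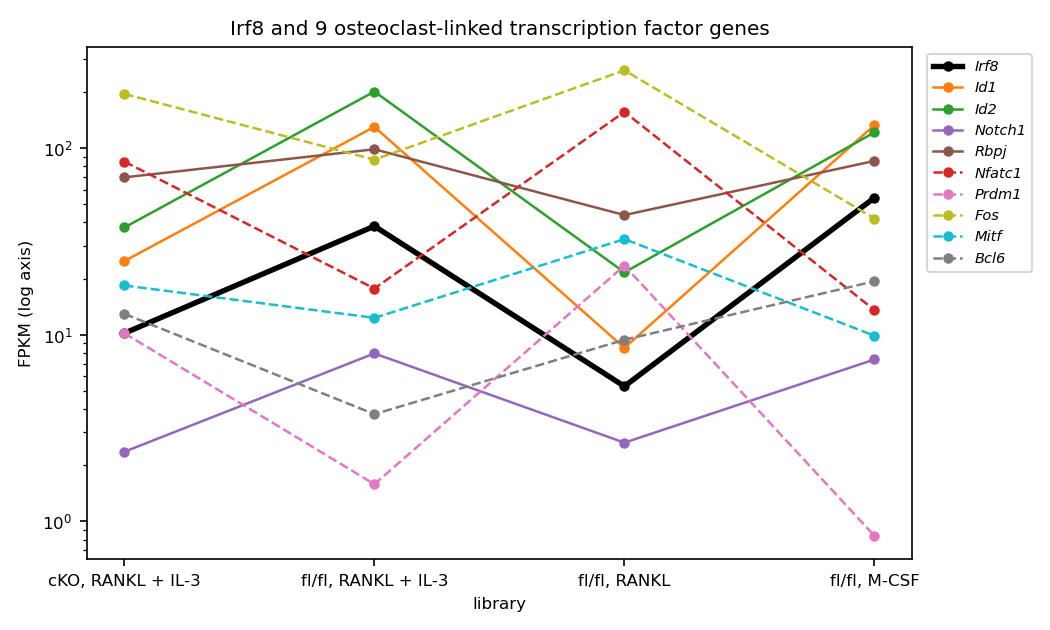
FPKM on a log axis of *Irf8* (thick black line) and 9 transcription factor genes linked to osteoclasts in the 4 libraries, with lines joining the points of a gene as a guide to the eye. Solid coloured lines are genes low in the cKO and RANKL libraries, as *Irf8* is at 10.2 and 5.30 FPKM, and dashed lines are the other genes, among them *Nfatc1*, whose highest point is 157 FPKM with RANKL.

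*Irf4*, which encodes a factor of lymphocytes, dendritic cells and alternatively activated macrophages, was near the lower limit of detection. It stood at 0.15 FPKM in the cKO library, 1.28 FPKM in the IL-3 library, 0.12 FPKM in the RANKL library and 0.59 FPKM in the M-CSF library. These values came from about 26, 226, 20 and 93 fragments of its 1 transcript in the cKO, IL-3, RANKL and M-CSF libraries. The IL-3 library was thus highest and stood above M-CSF, unlike for *Irf8*. In plain FPKM *Irf4* was 4.88-fold lower with RANKL than with M-CSF (interval 3.00 to 8.39). It was 10.7-fold higher in the IL-3 than in the RANKL library (6.79 to 17.9) and 8.59-fold lower in the cKO than in the IL-3 library (5.79 to 13.6). On the log2(FPKM + 1) scale these differences shrank to -0.50, 1.03 and -0.99, so that *Irf4* lay just past 2-fold in the IL-3 contrast and just short of it in the genotype contrast. With a pseudocount of 0.1 FPKM it passed 2-fold in the RANKL contrast (-1.64) and the genotype contrast (-2.47). In the genotype contrast it also passed with median scaling (-1.05) and upper quartile scaling (-1.02).

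Genes with the pattern nearest to *Irf4* were *Tmem165*, for a Golgi ion transporter, at a root mean square difference of 0.039, *Ap1b1*, for a clathrin adaptor subunit, and *Napsa*, for the aspartic protease napsin A, both at 0.052, and *Ccdc71l* at 0.056. These 4 were far more abundant than *Irf4*, between 9.62 and 67.1 FPKM over the 4 libraries, and the added 1 FPKM narrows the pattern of *Irf4* more than theirs. The gene (ID 16364) lies on chromosome 13 from 30749226 to 30766976.

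*Irf5* encodes a factor that acts below Toll-like receptors on inflammatory cytokine genes. It stood at 88.3 FPKM in the cKO library, 121 FPKM in the IL-3 library, 68.9 FPKM in the RANKL library and 142 FPKM in the M-CSF library. The gene was 2.06-fold lower with RANKL than with M-CSF (interval 1.99 to 2.13), 1.76-fold higher in the IL-3 than in the RANKL library (1.70 to 1.82) and 1.37-fold lower in the cKO than in the IL-3 library (1.33 to 1.41). The cKO library stood 37.3% of the way from the RANKL to the IL-3 library, farther than for *Irf8*, *Irf2* (11.7%) and *Irf4* (2.51%).

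The 2 *Irf5* transcripts in the table differed in opposite directions. NM_012057, with the first exon at 29526625 on chromosome 6, stood at 71.3 FPKM in the cKO library, 111 FPKM in the IL-3 library, 53.2 FPKM in the RANKL library and 132 FPKM in the M-CSF library. NM_001252382, with the first exon at 29529282, stood at 17.0 FPKM in the cKO library, 9.94 FPKM in the IL-3 library, 15.7 FPKM in the RANKL library and 10.3 FPKM in the M-CSF library. The minor transcript was thus higher in the cKO and RANKL libraries, where the major was lower, and held 19.3% of the gene in the cKO library, 8.22% in the IL-3 library, 22.8% in the RANKL library and 7.27% in the M-CSF library. Both have 9 exons and share 8 of them, so they differ by the first exon alone, whose starts are 2657 bases apart, and the division of reads between them is an estimate of the authors' software with no interval in the table. With the most abundant transcript in place of the sum, the log2 ratios of *Irf5* were -1.29 in the RANKL contrast, 1.05 in the IL-3 contrast, which passes 2-fold, and -0.63 in the genotype contrast.

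**Figure D4:**
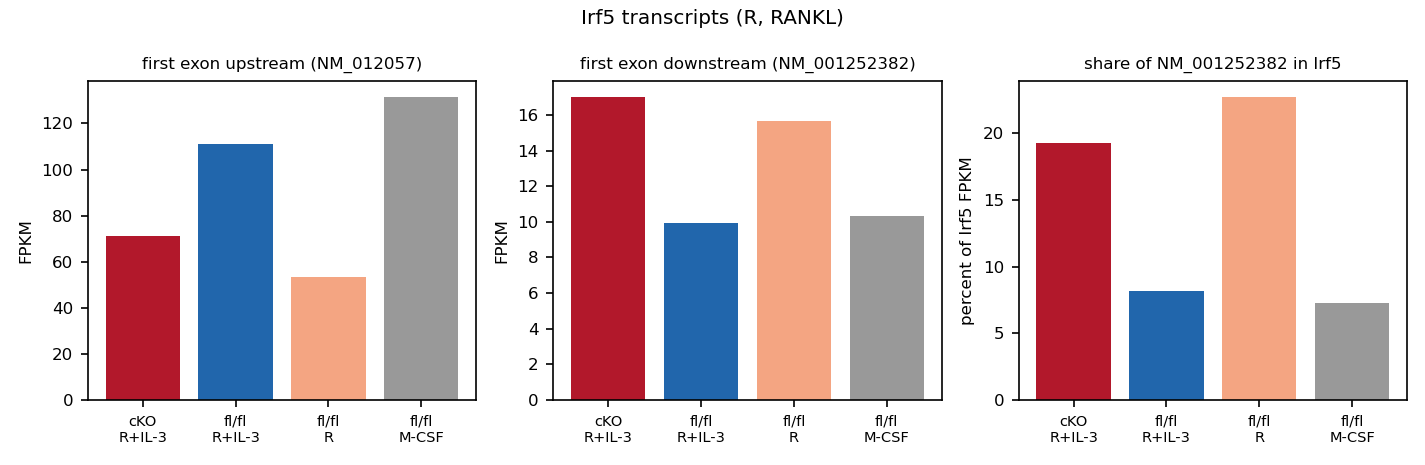
FPKM of the 2 *Irf5* transcripts (left and middle, each axis from 0 with its own scale) and the share of NM_001252382 in the *Irf5* total in percent (right) in the cKO, IL-3, RANKL and M-CSF libraries, 1 bar per library with no error bars. The share is high in the cKO (19.3%) and RANKL (22.8%) libraries and low in the IL-3 (8.22%) and M-CSF (7.27%) libraries.

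*Irf5* (ID 27056) spans 29526625 to 29541871 on the plus strand of chromosome 6. It shares 411 exon bases with *Tnpo3*, a nuclear import receptor gene on the other strand, and the sources used here do not say whether reads were counted by strand. *Tnpo3* stood at 38.2 FPKM in the cKO library, 31.7 FPKM in the IL-3 library, 40.3 FPKM in the RANKL library and 29.3 FPKM in the M-CSF library, the reverse order to *Irf5*. The last exon of NM_012057 and of NM_001252382 ends at 29537319, before the end of the gene span. Whether the shared bases lie within the exons of these transcripts was not tested. Reads in the shared bases cannot be told apart without strand, and their part, if any, in the *Irf5* values was not tested. Genes nearest to *Irf5* in pattern were *Smim15*, for a small membrane protein, and *Lamp2*, for a lysosomal membrane protein, at 0.010 and 0.012 log2 units, followed by *Itm2c* at 0.028, *Itprip* at 0.037 and *Cdc42se2*, for an effector of the GTPase CDC42, at 0.037. *Lamp2* stood at 116 FPKM in the cKO library, 157 FPKM in the IL-3 library, 88.8 FPKM in the RANKL library and 187 FPKM in the M-CSF library.

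*Irf2* encodes a factor best known as an antagonist of IRF1 on interferon-responsive promoters. It stood at 20.8 FPKM in the cKO library, 34.4 FPKM in the IL-3 library, 19.0 FPKM in the RANKL library and 33.3 FPKM in the M-CSF library, in 1 transcript. The IL-3 and M-CSF libraries thus had almost the same level, as did the cKO and RANKL libraries. The gene (ID 16363) lies on chromosome 8 from 46739732 to 46847458, with no exon bases shared with a neighbour. *Irf2* was 1.76-fold lower with RANKL than with M-CSF (interval 1.65 to 1.87), 1.81-fold higher in the IL-3 than in the RANKL library (1.71 to 1.92) and 1.65-fold lower in the cKO than in the IL-3 library (1.56 to 1.75). Among pairs of the 8 genes, *Irf2* and *Irf5* differed by a root mean square of 0.13, next to *Irf1* and *Irf9* at 0.12, the closest pair. At a threshold of 1.5-fold, *Irf2* joined the lower genes of the RANKL contrast (3 of 8, beside 13.9% of all genes), the higher genes of the IL-3 contrast (4 of 8, beside 12.1%) and the lower genes of the genotype contrast (3 of 8, beside 8.89%). At that threshold 0 of the 8 were higher in the RANKL contrast (15.6% of all genes) and 0 lower in the IL-3 contrast (12.7%).

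*Irf7*, which encodes the interferon-inducible amplifier of type I interferon production, had its highest level in cKO and stood farthest above *Stat5* fl/fl of the 8 genes. It was at 59.6 FPKM in the cKO library, 36.8 FPKM in the IL-3 library, 27.0 FPKM in the RANKL library and 34.8 FPKM in the M-CSF library. *Irf7* was 1.62-fold higher in the cKO than in the IL-3 library (interval 1.54 to 1.70), the only member past 1.5-fold in that direction, beside 8.43% of all genes. It was 1.29-fold lower with RANKL than with M-CSF (1.21 to 1.37) and 1.36-fold higher in the IL-3 than in the RANKL library (1.28 to 1.45). Its 3 transcript values were each higher in the cKO than in the IL-3 library, by 1.59- to 1.67-fold. The main one, NM_016850, held 55.0% to 59.7% of the gene in the 4 libraries. The division of reads between the transcripts is an estimate of the authors' software, so these are not 3 separate observations. *Irf7* (ID 54123) lies on the minus strand of chromosome 7 from 141262706 to 141266481 and shares 45 exon bases with *Phrf1* on the other strand.

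Most interferon-induced genes had a positive log2 ratio in the genotype contrast as well. Of 31 counted genes of the list of 35, 5 stood 2-fold higher in this contrast (2.11% of all genes did) and 0 lower (4.28% of all genes), with 26 above 0 (83.9%, beside 64.4% of all genes) and a median log2 ratio of 0.53. Among the highest were *Ifit1*, for an RNA-binding antiviral protein, at 11.2 FPKM in the cKO library and 3.97 FPKM in the IL-3 library, and *Isg15*, for a ubiquitin-like modifier, at 40.1 FPKM in the cKO library and 16.1 FPKM in the IL-3 library. *Rtp4* stood at 46.2 FPKM in the cKO library and 21.7 FPKM in the IL-3 library. *Mx1*, whose promoter drives the Cre transgene, did not follow them, with 2.91 FPKM in the cKO library, 4.24 FPKM in the IL-3 library, 0.86 FPKM in the RANKL library and 1.83 FPKM in the M-CSF library.

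In the IL-3 contrast 2 of the 31 interferon-induced genes were higher, *Mx1* and *Zbp1* (6.11% of all genes were), and 0 lower (3.47%). The list's median was 0.23 (-0.15 over all genes), with 23 genes above 0 (74.2%, beside 36.0% of all genes). In the RANKL contrast 2 were higher, *Cxcl10* and *Gbp3* (5.44% of all genes were), and 0 lower (6.88%). There the list's median was -0.18 (0.14 over all genes), with 9 genes above 0 (29.0%, beside 61.0% of all genes). *Cxcl10*, a chemokine gene, stood at 17.3 FPKM with RANKL and 3.25 FPKM with M-CSF. Families such as *Ifit*, *Oas* and *Gbp* hold near copies between which reads may be divided, so their single values are uncertain. Each genotype had 1 library with IL-3, so genotype, the Mx1-Cre transgene and differences between mice or cultures cannot be told apart.

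**Figure D5:**
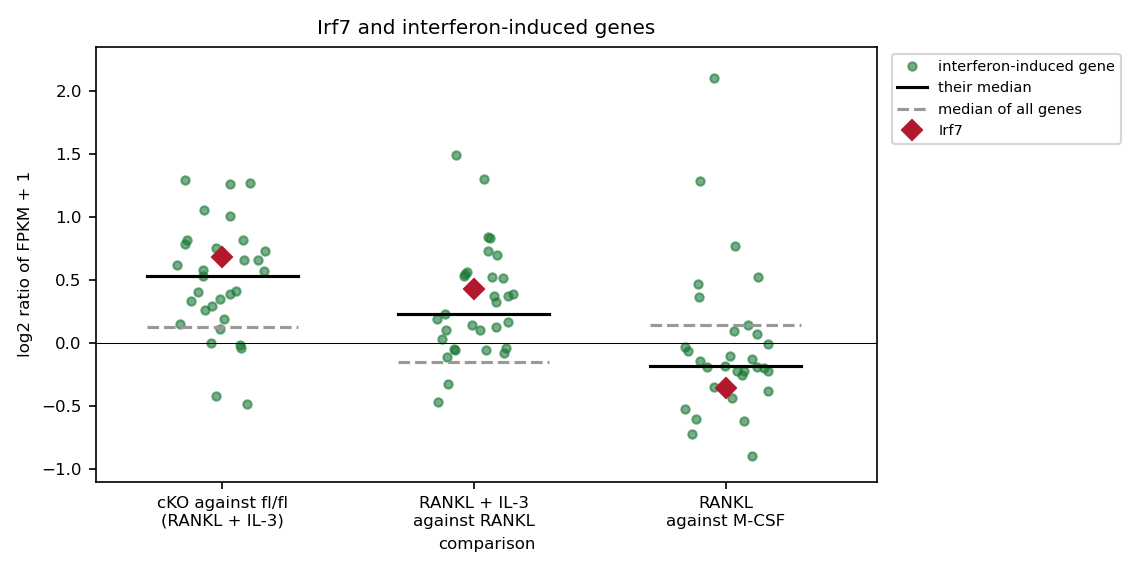
Log2 ratio of FPKM + 1 (vertical axis) of 31 interferon-induced genes (green points, spread sideways to be visible) and of *Irf7* (red diamond) in the genotype, IL-3 and RANKL contrasts, with the median of the list (black line) and of all genes (dashed grey line). In the genotype contrast *Irf7* lies at 0.68 and the list's median at 0.53, above the median of all genes at 0.13.

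*Irf9* encodes the DNA-binding subunit of the complex with STAT2. It stood at 28.3 FPKM in the cKO library, 22.9 FPKM in the IL-3 library, 21.8 FPKM in the RANKL library and 26.9 FPKM in the M-CSF library. The range was thus narrow, with cKO highest, 1.23-fold above the IL-3 library (interval 1.16 to 1.31). In the IL-3 contrast the fold was 1.05 (0.99 to 1.12). Taken from NM_008394, its most abundant transcript in the cKO, IL-3 and RANKL libraries (43.8% to 48.8% of the gene) but not in the M-CSF library (38.2%, against 45.7% for NM_001159418), the log2 ratio of *Irf9* turned to 0.042 in the RANKL contrast (-0.29 for the sum) and -0.074 in the IL-3 contrast (0.070 for the sum). The gene (ID 16391) lies on chromosome 14 from 55603571 to 55610030 and shares 123 exon bases with *Rnf31*, for a ubiquitin ligase subunit, on the same strand.

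*Irf1*, which encodes an interferon gamma-induced activator, was at 13.9 FPKM in the cKO library, 11.6 FPKM in the IL-3 library, 13.1 FPKM in the RANKL library and 15.5 FPKM in the M-CSF library. Its log2 ratios were -0.23, -0.16 and 0.24 in the RANKL, IL-3 and genotype contrasts, and the ratio in the IL-3 contrast was at 0.0042 after median scaling. *Irf3*, which encodes the constitutively made factor below nucleic acid sensors, was at 20.1 FPKM in the cKO library, 17.8 FPKM in the IL-3 library, 22.7 FPKM in the RANKL library and 20.1 FPKM in the M-CSF library. It was the only member with its highest level in the RANKL library, and its log2 ratios were 0.17, -0.34 and 0.16 in the RANKL, IL-3 and genotype contrasts. For both genes every counting interval of a fold left out 1, and no difference reached 1.5-fold. *Irf1* (ID 16362) lies on chromosome 11 from 53770014 to 53778374 and *Irf3* (ID 54131) on chromosome 7 from 44997648 to 45002848, and they share 135 and 88 exon bases with genes on the other strand, Gm17334 and Bcl2l12.

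Genes around the IRFs in their pathway were read from lists by role. Of all genes, 5.44% were higher and 6.88% lower in the RANKL contrast, 6.11% and 3.47% in the IL-3 contrast and 2.11% and 4.28% in the genotype contrast. The medians over all genes were 0.14, -0.15 and 0.13. Of 9 genes of interferons and their receptors, 5 were counted, all receptor subunits, and 0 were 2-fold apart in any of the 3 contrasts, with medians of -0.39, 0.23 and -0.14. *Ifnar1* and *Ifnar2*, for the type I interferon receptor, stood at 27.1 to 33.1 FPKM and 56.9 to 89.7 FPKM over the 4 libraries. The interferon genes *Ifng* and *Ifna4* were listed at 0 in all libraries and *Ifnb1* at 0.092 FPKM or less.

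Of 9 JAK kinase, STAT and feedback genes, *Socs1*, for a feedback inhibitor, was higher and *Stat2*, for a partner of IRF9, lower in the RANKL contrast. Of all genes, 5.44% were higher and 6.88% lower there. In the IL-3 contrast (6.11% and 3.47% of all genes) and the genotype contrast (2.11% and 4.28%) 0 of the 9 were 2-fold apart. The medians of the list were -0.06, 0.37 and -0.23 (0.14, -0.15 and 0.13 over all genes). *Stat2* stood at 11.7 FPKM in the cKO library, 13.4 FPKM in the IL-3 library, 6.37 FPKM in the RANKL library and 15.1 FPKM in the M-CSF library.

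Of 19 sensor, adaptor and kinase genes upstream of IRF3, IRF5 and IRF7, the RANKL contrast had 1 higher and 3 lower (5.44% and 6.88% of all genes). The IL-3 contrast had 4 and 0 (6.11% and 3.47% of all genes), and the genotype contrast 0 and 2 (2.11% and 4.28%). *Tlr7*, for an endosomal RNA receptor, stood at 14.3 FPKM in the cKO library, 28.2 FPKM in the IL-3 library, 6.25 FPKM in the RANKL library and 30.8 FPKM in the M-CSF library. *Tlr4*, for the endotoxin receptor, stood at 12.2 FPKM in the cKO library, 36.1 FPKM in the IL-3 library, 7.34 FPKM in the RANKL library and 17.8 FPKM in the M-CSF library. *Tmem173*, which encodes the DNA-sensing adaptor STING, had log2 ratios of -1.50, 1.67 and -1.13 in the RANKL, IL-3 and genotype contrasts. These genes took the side of *Irf8*, whereas *Traf3* took the opposite side, at 1.08, -0.59 and 0.52. Of the 19 genes, 8 were above 0 in the RANKL contrast, 9 in the IL-3 contrast and 11 in the genotype contrast. These are 42.1%, 47.4% and 57.9%, beside 61.0%, 36.0% and 64.4% of all genes. The median of the list was -0.14 in the RANKL contrast (0.14 over all genes), -0.0015 in the IL-3 contrast (-0.15) and 0.08 in the genotype contrast (0.13).

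Of 14 genes for factors that bind DNA with or beside IRF4 and IRF8, 11 were counted. The RANKL contrast had 1 higher and 3 lower (5.44% and 6.88% of all genes). The IL-3 contrast had 3 and 0 (6.11% and 3.47% of all genes), and the genotype contrast 0 and 3 (2.11% and 4.28%). The medians of the list were -0.19, 0.65 and -0.35 (0.14, -0.15 and 0.13 over all genes). *Batf3*, for a partner of IRF8 in dendritic cells, stood at 0.77 FPKM in the cKO library, 6.08 FPKM in the IL-3 library, 0.43 FPKM in the RANKL library and 2.81 FPKM in the M-CSF library. *Batf*, for a partner of IRF4, was at 5.68 FPKM in the cKO library, 17.2 FPKM in the IL-3 library, 4.99 FPKM in the RANKL library and 3.26 FPKM in the M-CSF library, so that the IL-3 library stood apart from the other 3. *Spi1*, which encodes PU.1, was abundant throughout, at 382 FPKM in the cKO library, 337 FPKM in the IL-3 library, 403 FPKM in the RANKL library and 268 FPKM in the M-CSF library. It was thus lowest where *Irf8* was highest.

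Of 10 genes listed as cofactors and repressors, *Nfkbia* was higher in the RANKL contrast (5.44% of all genes were), although it encodes an inhibitor of NF-kappa B rather than of IRF proteins. *Irf2bpl* was lower in the IL-3 contrast (3.47% of all genes) and higher in the genotype contrast (2.11%). The medians of the list were 0.14, -0.30 and 0.28 (0.14, -0.15 and 0.13 over all genes). *Irf2bpl*, for a relative of the IRF2-binding corepressors, stood at 18.2 FPKM in the cKO library, 7.51 FPKM in the IL-3 library, 19.1 FPKM in the RANKL library and 18.3 FPKM in the M-CSF library, so the IL-3 library alone was low.

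Macrophage markers lay on the side of *Irf8* and osteoclast markers on the opposite side. Of the 6 osteoclast markers that reached 1 FPKM, 6 were higher in the RANKL contrast (5.44% of all genes), 6 lower in the IL-3 contrast (3.47%) and 4 higher in the genotype contrast (2.11%). Of the 5 macrophage markers, 4 were lower in the RANKL contrast (6.88% of all genes), 3 higher in the IL-3 contrast (6.11%) and 3 lower in the genotype contrast (4.28%). *Fcgr1*, for a high-affinity IgG receptor, stood at 11.7 FPKM in the cKO library, 48.3 FPKM in the IL-3 library, 3.32 FPKM in the RANKL library and 69.0 FPKM in the M-CSF library. Of 6 dendritic cell markers, *Itgax*, *Cd74* and *H2-Ab1* reached 1 FPKM, and the 6 summed to 128 FPKM in the cKO library, 592 FPKM in the IL-3 library, 117 FPKM in the RANKL library and 171 FPKM in the M-CSF library. The IL-3 library was highest in these genes, as it was in *Irf4* and *Batf3*, while the defining markers *Flt3*, *Zbtb46* and *Ccr7* stayed at 0.60 FPKM or less in every library.

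Neutrophil markers, with *S100a8* and *S100a9* in the lead, summed to 742 FPKM in the cKO library, 1055 FPKM in the IL-3 library, 714 FPKM in the RANKL library and 1252 FPKM in the M-CSF library, also in the order of *Irf8*. B cell markers summed to 3.17 FPKM or less and T cell markers to 0.99 FPKM or less, with *Cd3e* and *Cd3g* listed at 0. Plasmacytoid dendritic cell markers summed to 166 FPKM in the cKO library, 139 FPKM in the IL-3 library, 108 FPKM in the RANKL library and 128 FPKM in the M-CSF library, of which nearly all was *Bst2*, itself an interferon-induced gene, and the defining *Siglech* was at 0.46 FPKM or less. The part of these cells or genes in the differences of the IRF genes was not tested.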

How the data were processed

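RNA was measured in 4 libraries of BMMs, 1 per condition. A TruSeq RNA kit and a HiSeq system were used by the authors, and the submitters' processing notes name TopHat2 2.0.13, Cufflinks 2.2.1 and mm10. The deposited table gives 1 value per RefSeq transcript and library; its unit is not named, and the authors' values were read as FPKM, scaled to transcript length and library size, from the software and the values. Alignment options and strand use: not given in the sources used here.

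From the 33170 transcript rows, values were summed per gene ID. Genes reaching 1 FPKM in 1 library or more were kept, 47 small RNA genes left out, and log2 ratios taken with a pseudocount of 1 FPKM and a threshold of 2-fold. No test was possible. Depth came from genes with 1 transcript of 3 kb or more, whose low FPKM values, multiplied by length, are spaced by 1 fragment. Of these, 66.8% to 69.4% fell within 0.2 of a whole number of fragments (40% under even spacing), partly by construction, as the spacing was fitted to them. Level intervals are exact Poisson, and fold intervals exact binomial (Clopper-Pearson), on approximate fragments. Lengths, positions and overlaps came from GENCODE M21 (GRCm38), and promoters from RefSeq (GRCm38.p6). The ratio step was tested on simulated data with counting noise alone and changes of 4-fold or more in genes at 5 FPKM or more. Changes of 2-fold, changes in genes as low as *Irf4* and variation between cultures were not covered.

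The members and lists were chosen with earlier results of these data known. Named were all 8 members, up to 4 genes of each list with the largest ratios among those at 5 FPKM or more in 1 of the 2 libraries, the 5 genes nearest in pattern to each member past 2-fold, and *Stat5a* and *Stat5b*. Genes named outside this rule, among them *Ifnb1*, *Ifng*, *Ifna4*, *Spi1*, *Batf*, *Mx1*, *Gbp3*, *Bcl6*, *Notch1* and *Tnpo3*, and the part of the rule's genes given in the text, were chosen after their values were seen. A few genes are not reported here, and the counts and medians of 2 lists were taken without them, a change made after their values were seen. Alternatives were a pseudocount of 0.1 FPKM, median and upper quartile scaling, no minimum and a minimum of 5 FPKM, keeping small RNA genes, the most abundant transcript, and thresholds of 1.5-fold and 4-fold. Calculations used Python 3.11.15 with scipy 1.17.1, pandas 2.3.3, numpy 2.4.6 and, for plots, matplotlib 3.10.9.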

Additional observations from a re-analysis of the deposited data

How the results depend on the processing

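No paired analysis was possible because each condition has 1 library. For the same reason no library could be left out, and the depth limits mainly *Irf4*, which rests on about 20 fragments in the RANKL library. The counts of IRF genes changed by 1 gene at most under every setting other than the thresholds. The genes lower in cKO were 2, *Irf8* and *Irf4*, with a pseudocount of 0.1 FPKM, with median scaling and with upper quartile scaling, since each moves *Irf4* past 2-fold, and the genes higher with IL-3 were 1 with a minimum of 5 FPKM, which drops *Irf4*. Of all genes, 461 were lower in cKO as reported, 636 with the pseudocount of 0.1 FPKM and 519 with upper quartile scaling. With a minimum of 5 FPKM, 556 of all genes were higher with IL-3 (658 as reported). With the pseudocount of 0.1 FPKM, 560 of all genes were lower with IL-3 (373 as reported) and 379 higher in cKO (227 as reported).

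At 1.5-fold, 4 IRF genes were higher in the IL-3 contrast, and 1 was higher and 3 lower in the genotype contrast. The higher and lower genes of the whole table then numbered 1680 and 1491 (RANKL contrast), 1303 and 1371 (IL-3 contrast) and 907 and 957 (genotype contrast). At 4-fold, *Irf8* was left as 1 gene lower in the RANKL contrast and 1 gene higher in the IL-3 contrast, and 0 were lower in the genotype contrast, with 124 and 162, 175 and 74, and 34 and 108 higher and lower genes of the whole table. With median scaling, 185 genes were higher and 554 lower in cKO. Of the 24 log2 ratios of the 8 genes, 24 kept their sign with the smaller pseudocount, 24 with upper quartile scaling, 23 with median scaling and 22 with the most abundant transcript. The 3 changes of sign, in *Irf1* and *Irf9*, were all of ratios within 0.3 of 0.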
